A study of Homo sapiens with 4 samples.

Results

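The glucocorticoid receptor gene NR3C1 and 7 genes whose transcription glucocorticoids are known to raise (TSC22D3, FKBP5, KLF9, PER1, ZBTB16, TXNIP and DDIT4) were examined for open chromatin. Members were all consensus ATAC-seq peaks that overlapped the gene body, or the 20 kb on either side of it, of one of these genes in GENCODE 44 on GRCh37, the build of the deposited peaks (hg19). This gave 103 of 139872 peaks, of which 24 were promoter peaks of the genes themselves, within 1 kb of an annotated transcript start. A further 42 lay in the gene bodies, 30 in the flanks, and 7 at promoters of neighbouring genes. Peaks are named by gene and numbered within each locus from the lowest coordinate. TXNIP held 0 peaks, and the other 7 genes held 10 to 22 each.

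Glucocorticoids enter cells and bind the receptor, which is held by HSP90 and its co-chaperones in the cytoplasm. The bound receptor moves to the nucleus and occupies response elements, short palindromes with a 3-base spacer, largely at chromatin that is already open. In B cell precursor leukemia these hormones are a mainstay of treatment, because the receptor's response program arrests and kills lymphoid cells.

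The libraries came from a single cell line, SEM, which is a leukemia of B cell precursors with an MLL rearrangement. All cells carried dCas9-KRAB, a nuclease-dead Cas9 fused to a repressor domain. The cells of 2 libraries also carried sgFLT3-DE-1, a guide against a HOXA9-bound enhancer of FLT3, and those of the other 2 carried the non-targeting guide sgNT. The labels name serum and antibiotics in the medium and no added glucocorticoid. The levels below are, as far as the labels say, those of cells to which none was added. The hormone content of the serum is not given, so they are not levels of a known hormone-free state. Peaks held 3670758 and 4831164 counts in the sgFLT3-DE-1 libraries, against 3321429 and 2683477 in the sgNT libraries, and 72 of the 103 peaks (69.9%) had enough counts to be tested, against 59.0% of all peaks. The labels do not say whether libraries of a guide came from separate cultures, so p-values measure only the spread between libraries, which may be technical. Among marker genes read at promoter peaks, 9 of 10 B cell precursor genes had a peak (CD79A had none), against 2 of 5 each for T cell, myeloid, erythroid and epithelial genes. The erythroid list summed to 583 and 246 normalised CPM (CPM after TMM scaling of library sizes) with sgFLT3-DE-1, against 66.8 and 50.5 with sgNT, nearly all of it at 2 HBB peaks, while ALAS2, EPB42 and KLF1 had no promoter peak. The part of HBB in the values below was not tested.

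The letters of the response element were searched in the 300 bp around each peak centre, on both strands, and the peaks that held it are printed because there the letters of the element fell inside an open site. The full element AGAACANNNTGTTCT was found in 1 of the 103 member peaks, against 16 of all 139872 (0.01144%). That peak, FKBP5-p4 (chr6:35569672-35569918, 247 bp, GRCh37 plus strand), lay in intron 5 of FKBP5, which is transcribed from the minus strand, and the element, in capitals, was centred 71.0 bp from the peak centre.
FKBP5-p4: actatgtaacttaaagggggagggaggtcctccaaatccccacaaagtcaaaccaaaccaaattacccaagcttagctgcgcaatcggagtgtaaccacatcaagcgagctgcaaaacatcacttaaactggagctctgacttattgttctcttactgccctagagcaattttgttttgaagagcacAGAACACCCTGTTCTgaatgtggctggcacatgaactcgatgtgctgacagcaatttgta

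A relaxed form, GNACANNNTGTNC, which contains the full element's inner bases, was in 4 of the 103 windows (3.88%), against 0.4304% of all peaks, and in 5 member peaks when the whole peak was read. The 4 besides FKBP5-p4 are printed with 30 bp on either side, plus strand of GRCh37, with the relaxed element in capitals. The stretches printed lie in an FKBP5 promoter peak (chr6:35695861-35695933), in a peak upstream of it (chr6:35699766-35699838), in a peak upstream of KLF9 (chr9:73035012-73035084) and in an internal promoter peak of ZBTB16 (chr11:114030897-114030969).
FKBP5-p11: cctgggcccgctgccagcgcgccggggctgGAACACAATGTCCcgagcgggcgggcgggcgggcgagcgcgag
FKBP5-p13: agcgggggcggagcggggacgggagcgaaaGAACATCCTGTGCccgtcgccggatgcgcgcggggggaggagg
KLF9-p12: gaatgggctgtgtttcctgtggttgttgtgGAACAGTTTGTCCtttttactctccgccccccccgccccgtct
ZBTB16-p13: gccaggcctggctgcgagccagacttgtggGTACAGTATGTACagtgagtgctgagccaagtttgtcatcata

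A letter match is a description of these windows and not a bound site. The other motifs were near their share over all peaks. The AP-1 letters TGANTCA were in 17 of the 103 windows (16.5%, against 14.83% of all), and the E-box CACGTG in 8 (7.77%, against 5.052%). The cyclic AMP response element TGACGTCA was in no member peak. In the RefSeq promoters (build GRCh38.p14, 250 bp before to 50 bp after each start), 18 entries matched the members, and the relaxed response element was in 1 of them, a TXNIP promoter, against 137 of all 35116 (0.3901%). The E-box was in promoters of FKBP5 and PER1, against 7.256% of all promoters.

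The receptor gene itself was open at its start. NR3C1 (chromosome 5, 142657496 to 142815077, minus strand) held 15 peaks, 5 of them promoter peaks, and those 5 took between 83.7% and 86.9% of the counts of the locus in each library. The main one, NR3C1-p9, was 1005 bp long (142783168 to 142784172), covered the first exon and the region upstream, and had 67.3 and 63.0 normalised CPM with sgFLT3-DE-1, against 72.2 and 65.7 with sgNT. The groups overlapped, with a log2 fold change of -0.08 ± 0.25 (SE; 95% interval -0.60 to 0.44). In sgNT cells its level per length was 68.6 ± 4.59 CPM per kb (SD, n = 2), above 80.7% of all promoter peaks, whose median was 36.2.

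The other NR3C1 promoter peaks were smaller. NR3C1-p12, 31.7 kb upstream of the canonical start at a cluster of alternative first exons, had 15.1 and 17.5 CPM with sgFLT3-DE-1, against 20.7 and 18.02 with sgNT, without overlap of the groups. NR3C1-p8 in exon 2 had 9.88 and 7.30 with sgFLT3-DE-1, against 7.02 and 10.0 with sgNT. NR3C1-p10 had 5.87 and 7.96, against 8.02 and 7.21. NR3C1-p11 had 4.02 and 6.41, against 8.36 and 5.21 with sgNT, so p8, p10 and p11 all overlapped between guides. The 10 other peaks of the locus were lower, at 4.25 to 25.5 CPM per kb in sgNT cells, where the median of all peaks away from promoters was 18.4. Of these 10, the 9 that were not tested had at most 18 counts in any library. Per length, and by the mean of all 4 libraries, NR3C1-p6 in intron 2 was the highest of the 9, at 18.9 CPM per kb, and had 5 and 7 counts with sgFLT3-DE-1, against 12 and 6 with sgNT. The tested one, NR3C1-p7 in the same intron, had 10 and 19 counts with sgFLT3-DE-1, against 15 and 8 with sgNT, a log2 fold change of -0.17 ± 0.50 (SE).

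FKBP5 encodes a co-chaperone of HSP90 that lowers the receptor's affinity for hormone, so its induction is a feedback on the receptor. Its locus (chromosome 6, 35541362 to 35696360, minus strand) held 15 peaks, of which 3 were promoter peaks. FKBP5-p7 covered the canonical start (35656427 to 35656922, 496 bp, with 112 bp of exon 1). It had 13.3 and 18.4 CPM with sgFLT3-DE-1, against 27.4 and 25.2 with sgNT, and both sgFLT3-DE-1 libraries were below both sgNT libraries. The log2 fold change was -0.72 ± 0.28 (SE; 95% interval -1.29 to -0.15), with an unadjusted p of 0.0146 in edgeR's quasi-likelihood test, the smallest among the members, and an adjusted p of 1.0 over all 82558 tested peaks. This peak is rich in G and C (76.6%, against a median of 49.2% over all tested peaks), and after correction of each library for GC content the log2 fold change was -0.54.

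The promoter peak of a longer FKBP5 transcript, FKBP5-p11, 39.3 kb upstream, carried a relaxed element. It had 12.97 and 22.3 CPM with sgFLT3-DE-1, against 15.04 and 20.8 with sgNT. Its groups overlapped, with a log2 fold change of 0.01 ± 0.30. The third promoter peak, FKBP5-p6 in intron 1, had 3.40 and 4.42 CPM with sgFLT3-DE-1, against 3.34 and 2.80 with sgNT. In sgNT cells p11 and p7 were at 54.7 and 53.1 CPM per kb, above 71.1% and 69.7% of all promoter peaks, and p6 at 20.4, above 22.4%.

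The FKBP5 peak with the full response element was open in all 4 libraries. FKBP5-p4 had 15 and 58 counts with sgFLT3-DE-1, against 19 and 27 with sgNT. In normalised CPM these were 4.63 and 12.8 with sgFLT3-DE-1, against 6.35 and 10.8 with sgNT, and the widest gap was between the sgFLT3-DE-1 libraries. The log2 fold change was 0.09 ± 0.41 (95% interval -0.75 to 0.93). Its level in sgNT cells, 34.7 ± 12.8 CPM per kb (SD, n = 2), was above 80.5% of peaks away from promoters.

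Upstream of FKBP5-p11 stood the largest peak of the locus, FKBP5-p13 (937 bp), with 22.2 and 38.7 CPM with sgFLT3-DE-1, against 35.4 and 45.6 with sgNT. Its log2 fold change was -0.39 ± 0.28, and the groups overlapped. It was -0.07 without sgFLT3-DE-1 replicate 1 and -0.87 without sgFLT3-DE-1 replicate 2. Beside it, FKBP5-p12 had 2.78 and 5.09 CPM with sgFLT3-DE-1, against 4.68 and 6.81 with sgNT, and at 58.6 CPM per kb in sgNT cells it was above 93.3% of peaks away from promoters. Every one of the 8 tested FKBP5 peaks was lower in sgFLT3-DE-1 replicate 1 than in sgFLT3-DE-1 replicate 2.

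TSC22D3 encodes GILZ, a leucine zipper protein that binds and restrains NF-kB and AP-1 and is among the most widely induced glucocorticoid targets. Its locus (chromosome X, 106956451 to 107020572, minus strand) held 14 peaks, with promoter peaks at the start of the long transcripts and again at starts of short ones, 54.3 to 59.4 kb into the gene. At the long transcripts, TSC22D3-p13 (107019022 to 107019305) had 20.7 and 18.1 CPM with sgFLT3-DE-1, against 21.1 and 20.02 with sgNT. TSC22D3-p14, next to it, had 14.5 and 16.8, against 14.04 and 16.4 with sgNT. Both lie within 1 kb of starts of NCBP2L as well, so their counts cannot be assigned to one of the genes.

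At the short transcripts, 58.7 kb into the gene, TSC22D3-p5 had 30.9 and 22.5 CPM with sgFLT3-DE-1, against 30.7 and 22.4 with sgNT, nearly the same pair of values in both groups. Its log2 fold change was -0.01 ± 0.27 (95% interval -0.57 to 0.55), and at 78.9 ± 17.5 CPM per kb in sgNT cells (SD, n = 2) it was above 85.3% of all promoter peaks. TSC22D3-p7, 54.3 kb into the gene, had 7.72 and 9.73 CPM with sgFLT3-DE-1, against 7.35 and 6.41 with sgNT, without overlap. TSC22D3-p4 had 2.47 and 3.54, against 3.34 and 3.20 with sgNT.

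Away from its promoters, TSC22D3 was most open at TSC22D3-p3, downstream of the gene, with 14.8 and 18.1 CPM with sgFLT3-DE-1, against 19.7 and 17.2 with sgNT. The intronic TSC22D3-p6 had 3.09 and 7.08 CPM with sgFLT3-DE-1, against 5.68 and 6.01 with sgNT. In sgNT cells p3 and p6 stood at 67.4 and 52.7 CPM per kb, above 95.2% and 91.4% of peaks away from promoters. The smallest p of the locus was at TSC22D3-p11, 8.89 kb into intron 1, a peak with an AP-1 match. It had 3.71 and 7.30 CPM with sgFLT3-DE-1, against 8.69 and 10.4 with sgNT, a log2 fold change of -0.74 ± 0.39 (95% interval -1.55 to 0.06) and an adjusted p of 1.0 in edgeR. Without sgFLT3-DE-1 replicate 1 its log2 fold change was -0.39, and without sgFLT3-DE-1 replicate 2 it was -1.36.

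KLF9 encodes a zinc finger transcription factor of the Krüppel-like family, for which an upstream enhancer that answers glucocorticoid and thyroid hormone together is known from frogs and mice. It was the most open of the 7 loci by summed counts. Its 13 peaks (gene on chromosome 9, 72999520 to 73029573, minus strand) included 3 promoter peaks in exon 1. KLF9-p9 had 27.5 and 21.0 CPM with sgFLT3-DE-1, against 23.1 and 16.4 with sgNT, a log2 fold change of 0.28 ± 0.28 (95% interval -0.30 to 0.85). KLF9-p8 had 36.8 and 30.1, against 30.4 and 34.4 with sgNT. KLF9-p7 had 18.2 and 15.7 with sgFLT3-DE-1, both above the 14.04 and 10.4 with sgNT.

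A cluster of 4 peaks between 4.4 and 6.23 kb upstream of the start held more counts than the KLF9 promoter. It spanned 2139 bp (73033767 to 73035905) and took 57.7% and 58.5% of the counts of the locus with sgFLT3-DE-1, against 62.7% and 60.8% with sgNT. KLF9-p10 had 83.7 and 69.7 CPM with sgFLT3-DE-1, against 80.2 and 76.9 with sgNT. KLF9-p12, which holds a relaxed response element, had 76.9 and 65.0, against 79.9 and 60.5 with sgNT. Both overlapped between guides and stood at 187 and 134 CPM per kb in sgNT cells, above 99.9% and 99.5% of peaks away from promoters. The outermost, KLF9-p13, had the smallest p among the peaks outside the promoter, with 12.1 and 11.1 CPM with sgFLT3-DE-1, against 16.4 and 13.2 with sgNT, without overlap, and a log2 fold change of -0.37 ± 0.31. Of the 12 tested KLF9 peaks 9 had a positive log2 fold change, with values of up to 0.77.

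**Figure D1:**
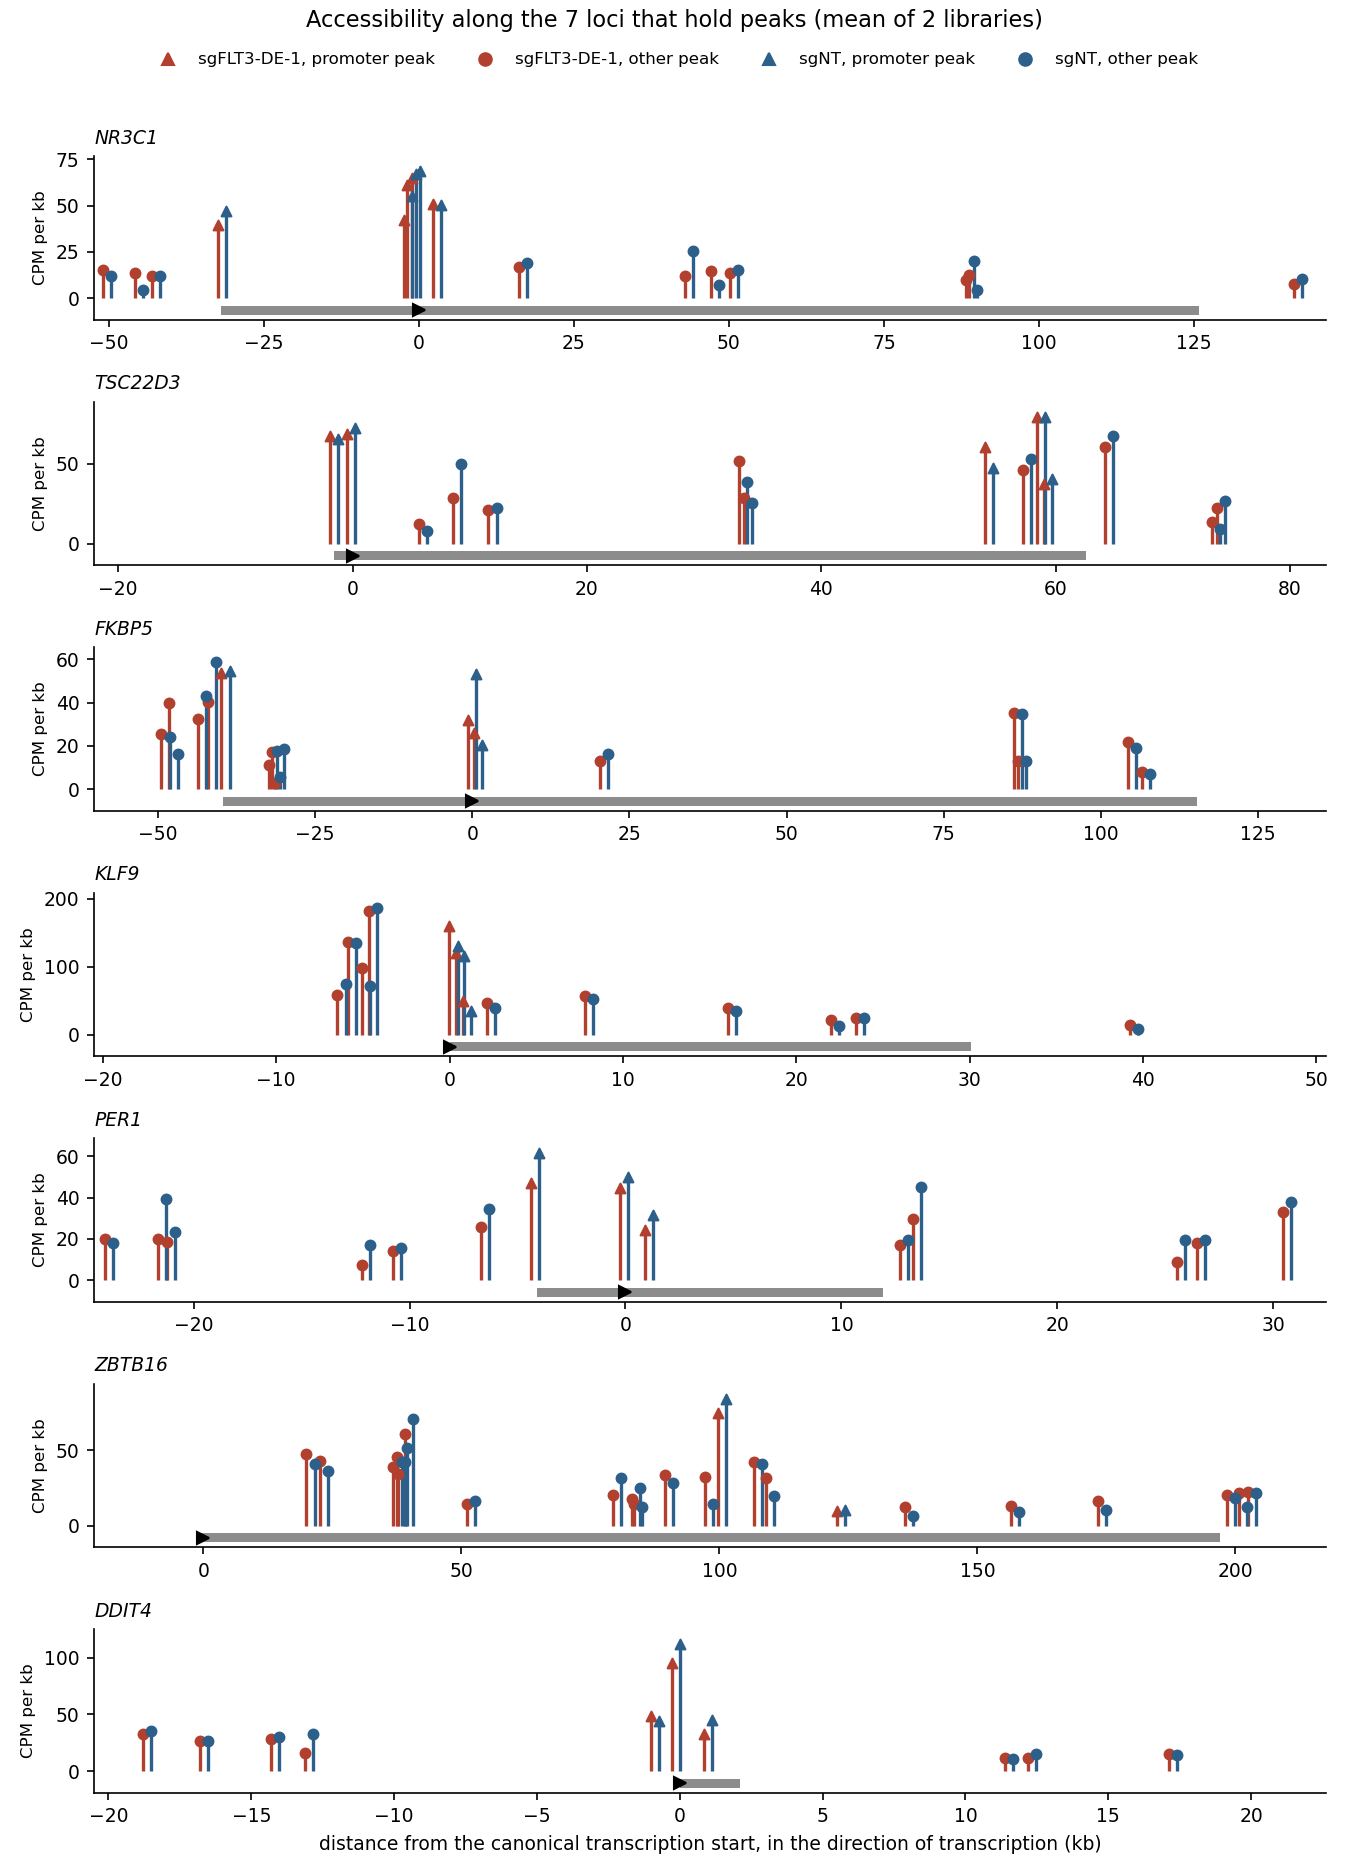
Accessibility along the 7 loci that hold peaks: normalised CPM per kb of peak (y axis, mean of 2 libraries per guide) against the distance in kb from the canonical transcription start (x axis, arrowhead at 0, gene body in grey, transcription towards the right). Triangles are promoter peaks and circles all others, and the sgFLT3-DE-1 stem stands just left of the sgNT stem of the same peak. The tallest stems are those of KLF9-p10, upstream of the start, at 187 CPM per kb in sgNT cells, while ZBTB16 has no stem at 0 and its tallest one 100.5 kb downstream.

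PER1 encodes a repressor of the circadian clock that glucocorticoids induce rapidly. Its locus (chromosome 17, 8043790 to 8059824, minus strand) held 14 peaks, and the strongest promoter peak was not at the canonical start. PER1-p8 (8059626 to 8060217), 4.2 kb upstream at the first exon of other transcripts, had 27.2 and 28.8 CPM with sgFLT3-DE-1, against 35.4 and 37.2 with sgNT. Both sgFLT3-DE-1 libraries were below both sgNT libraries, with a log2 fold change of -0.37 ± 0.25 (95% interval -0.89 to 0.14) and an adjusted p of 1.0 in edgeR. PER1-p7 at the canonical start had 6.49 and 10.6 CPM with sgFLT3-DE-1, against 8.69 and 10.4 with sgNT, and the E-box, the site of the clock activators, was in PER1-p8 and in the 300 bp around the centre of p7. PER1-p6 in intron 1 had 5.56 and 5.09, against 6.68 and 7.21 with sgNT.

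Of the 13 tested PER1 peaks, 12 had a negative log2 fold change, and 0 passed the threshold. Negative values made up 48.1% of all tested peaks and 61.4% of all tested promoter peaks. At PER1 the negative values ranged from -1.11 to -0.07. The lowest was at PER1-p11, a promoter peak of VAMP2, with 2 and 14 counts with sgFLT3-DE-1, against 14 and 10 with sgNT. The tested peaks of the locus had a median GC content of 62.6%. Their median log2 fold change was -0.35, and -0.28 after GC correction, when PER1-p1 and PER1-p7 were at 0.011 and 0.001. Of the 14 peaks of the locus 3 were promoter peaks of PER1, and the rest lay in its flanks or at promoters of neighbours. Among the 13 tested peaks, 12 were also lower in sgFLT3-DE-1 replicate 1 than in sgFLT3-DE-1 replicate 2. The smallest p of the locus was at PER1-p4, 13.5 kb downstream of the start and outside the gene, with 10.8 and 20.8 CPM with sgFLT3-DE-1, against 19.7 and 28.0 with sgNT. Its log2 fold change was -0.56 ± 0.31 with all libraries, -0.20 without sgFLT3-DE-1 replicate 1 and -1.14 without sgFLT3-DE-1 replicate 2. By the mean of all 4 libraries PER1-p4 and PER1-p1 were the most open peaks outside the promoters, at 37.4 and 35.5 CPM per kb. PER1-p1, 30.6 kb downstream of the start, had 4.32 and 5.31 CPM with sgFLT3-DE-1, against 5.35 and 5.61 with sgNT, without overlap. Peaks p10, p11 and p14 lay at promoters of the neighbours VAMP2 and TMEM107, and their windows are PER1's only by distance.

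ZBTB16 encodes PLZF, a BTB zinc finger repressor that is nearly silent in many cells until hormone is added. Its locus (chromosome 11, 113929763 to 114127487, plus strand) held the most peaks, 22, and none within 1 kb of the canonical start at 113930433. The only strong promoter peak was ZBTB16-p13 (114030696 to 114031098) in intron 3, near an internal start 100.5 kb downstream. It had 26.9 and 33.4 CPM with sgFLT3-DE-1, against 35.1 and 32.8 with sgNT, which overlapped, and a log2 fold change of -0.17 ± 0.26 (95% interval -0.69 to 0.36). In sgNT cells its 84.3 ± 3.97 CPM per kb (SD, n = 2) was above 87.1% of all promoter peaks. Another internal promoter peak, ZBTB16-p16, had 9 and 7 counts with sgFLT3-DE-1, against 10 and 3 with sgNT, too few to be tested.

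The other open ZBTB16 sites were intronic. Of its 18 peaks in the body and flank, 11 were above the median of peaks away from promoters, led by ZBTB16-p6, with 11.1 and 14.4 CPM with sgFLT3-DE-1, against 17.4 and 12.4 with sgNT. Second by the mean of all 4 libraries, at 44.6 CPM per kb against 65.8 for p6, was ZBTB16-p1, which had 9.27 and 9.73 CPM with sgFLT3-DE-1, both above the 8.36 and 8.01 with sgNT. Both peaks are in intron 2, and in sgNT cells p6 and p1 stood at 70.9 and 41.3 CPM per kb. ZBTB16-p8, also in intron 2, had the smallest p among the peaks outside the promoter, at 3.40 and 3.32 CPM with sgFLT3-DE-1, against 4.01 and 6.41 with sgNT. Its log2 fold change was -0.61 ± 0.49 (95% interval -1.61 to 0.39).

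DDIT4 encodes REDD1, an inhibitor of mTORC1 that glucocorticoids and stress induce. Its short gene (chromosome 10, 74033678 to 74035794, plus strand) and flanks held 10 peaks. DDIT4-p6 over the start (74033318 to 74033756) had 34.9 and 48.4 CPM with sgFLT3-DE-1, against 38.8 and 59.3 with sgNT. The groups overlapped, with a log2 fold change of -0.22 ± 0.27 (95% interval -0.77 to 0.33), and in sgNT cells its 112 ± 33.0 CPM per kb (SD, n = 2) was above 93.4% of all promoter peaks. DDIT4-p5 had 4.32 and 5.75 with sgFLT3-DE-1, against 4.01 and 5.21 with sgNT. DDIT4-p7 in exon 3 had 4.32 and 3.98, both below the 4.68 and 6.81 with sgNT.

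DDIT4-p4, 12.99 kb upstream of the start, was the other member peak with an unadjusted p under 0.05 (0.0256 in edgeR's quasi-likelihood test, adjusted p of 1.0). It had 12 and 24 counts with sgFLT3-DE-1, against 20 and 29 with sgNT, which in normalised CPM were 3.71 and 5.31, against 6.68 and 11.6, without overlap. The log2 fold change was -0.97 ± 0.41 (95% interval -1.82 to -0.13), and -0.57 without sgNT replicate 2. By the mean of all 4 libraries the most open peaks outside the promoter were DDIT4-p1 and DDIT4-p3, at 34.1 and 29.4 CPM per kb. DDIT4-p1 had 3.09 and 9.51 CPM with sgFLT3-DE-1, against 6.02 and 7.61 with sgNT, and DDIT4-p3 had 10 and 20 counts, against 12 and 10, and at both the guides overlapped in CPM.

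**Figure D2:**
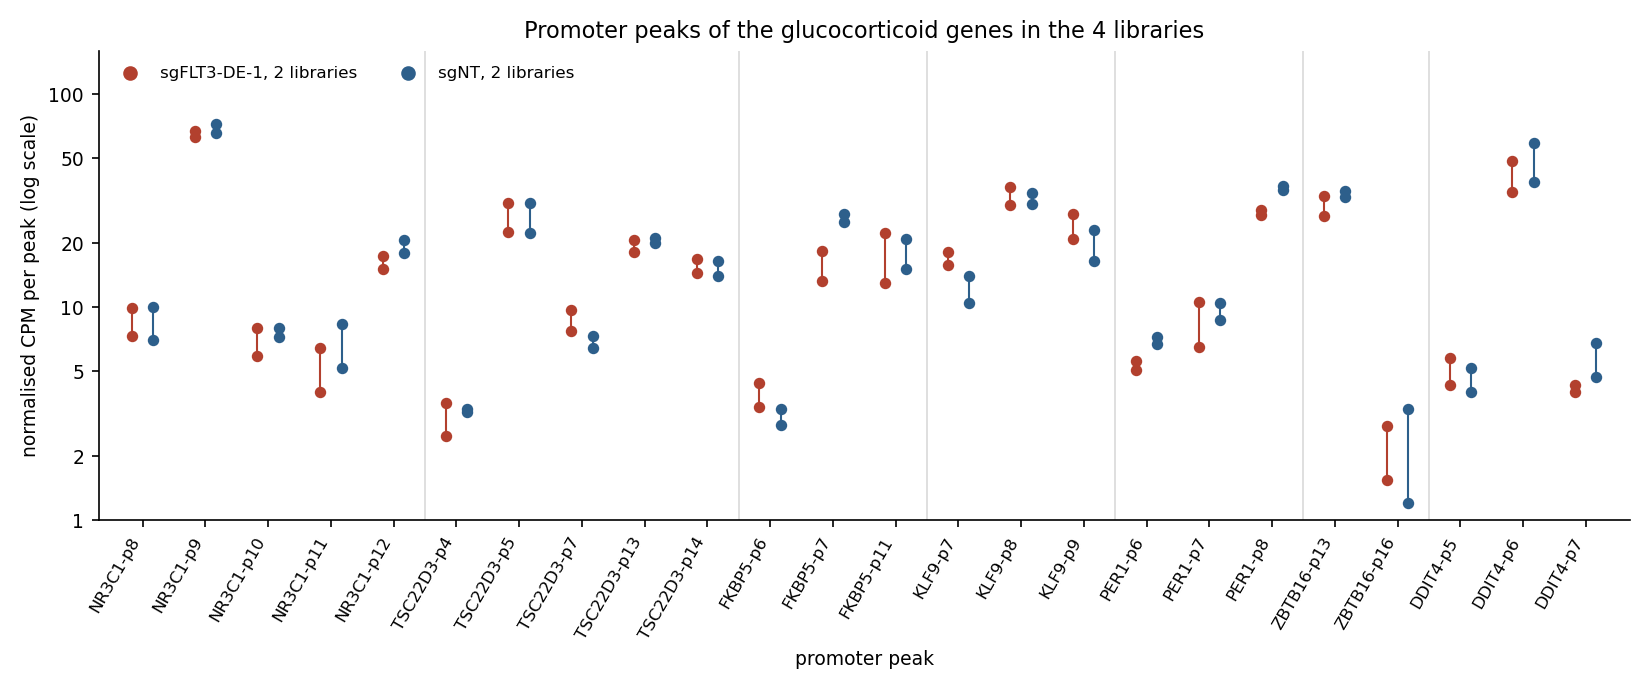
Normalised CPM (y axis, log scale) of the 24 promoter peaks (x axis, by gene), with 1 point per library joined by a line within each guide, sgFLT3-DE-1 at the left and sgNT at the right of each pair. The guides overlap at most peaks; at FKBP5-p7 the 2 sgFLT3-DE-1 points (13.3 and 18.4) lie below the sgNT points (27.4 and 25.2), and at KLF9-p7 they lie above them.

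TXNIP, which encodes an inhibitor of thioredoxin and of glucose uptake, had no consensus peak in its window (gene on chromosome 1, 145438490 to 145442635, plus strand). The nearest peaks were 40.5 and 34.6 kb from the gene. Peaks were sparse throughout this stretch of the chromosome. Only 9 lay within 1 Mb of the gene, with summed counts of 58 and 78 with sgFLT3-DE-1, against 58 and 44 with sgNT, whereas the median protein-coding gene had 114 peaks within 1 Mb, and 2.46% of genes had fewer than TXNIP. Of the 33 protein-coding genes in that stretch 8 had a promoter peak, against 66.1% of all 20136. The level of TXNIP and its change are therefore not given here, and whether its chromatin was open was not tested.

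Ordered by their strongest promoter peak in sgNT cells, the genes ran from KLF9 (152 and 108 CPM per kb) through DDIT4 (88.3 and 135), ZBTB16 (87.1 and 81.5), TSC22D3 (91.2 and 66.5), NR3C1 (71.8 and 65.3) and PER1 (59.8 and 62.9) to FKBP5 (45.9 and 63.5). Neighbours in this order overlapped in their 2 libraries, except DDIT4 with ZBTB16 and NR3C1 with PER1. For some genes the strongest promoter peak was at an alternative start and not at the canonical one. These were ZBTB16 (p13, 100.5 kb downstream), TSC22D3 (p5, 58.7 kb downstream), PER1 (p8, 4.2 kb upstream) and FKBP5 (p11, 39.3 kb upstream). ZBTB16 had no peak within 1 kb of its canonical start. Of the 24 promoter peaks 20 were above the median of all promoter peaks and 3 were in the highest 10% of them, and each of the 7 genes with peaks had one above the median. Of the 72 members away from any promoter 46 were above the median of such peaks, and 11 were in the highest 10%. Member and other peaks differ in length and GC content, and no test was made of these levels.

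With the guide against the FLT3 enhancer, 0 of the 72 tested member peaks differed from sgNT at FDR 0.05 in edgeR, where 0.00242% of all tested peaks did (2 of 82558, both higher with sgFLT3-DE-1). Both of the called peaks were the HBB peaks described above (chr11:5246126-5247346 and chr11:5247720-5247830). They count as promoter peaks only by the rule of 1 kb around any annotated start. At an unadjusted p under 0.05 there were 2 members (2.78%), FKBP5-p7 and DDIT4-p4, against 1.9% of all tested peaks. DESeq2 and limma-voom also called 0 members, with 0 and 3 at an unadjusted p under 0.05. With 2 libraries in each group an exact permutation test of a single peak cannot go below a two-sided p of 0.33. Groups did not overlap at 25 of the 72 peaks (34.7%), against 27.6% of all tested peaks, with 15 lower and 10 higher in sgFLT3-DE-1 cells. Standard errors of the log2 fold changes were 0.25 to 0.66, with a median of 0.40. FKBP5-p7, the member with the smallest unadjusted p, did not pass. The libraries were made from bulk cells, so fewer cells with an open site and a lower level in each cell cannot be told apart.

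The members' log2 fold changes ran from -1.11, at the VAMP2 promoter peak PER1-p11, to 0.77. Of them 43 were negative (59.7%, against 48.1% of all tested peaks) and 29 positive. Their median was -0.09, against 0.02 over all tested peaks. It depended on which sgFLT3-DE-1 library was kept, and was -0.33 without sgFLT3-DE-1 replicate 2 and close to 0, at -0.005, without sgFLT3-DE-1 replicate 1. For the 23 tested promoter peaks the median was -0.09, against -0.08 over the 20232 promoter peaks tested. For the rest of the members it was -0.07, against 0.05 over the 62326 tested peaks at no promoter. The 2 sets are not alike, because the rest of the members include promoter peaks of neighbouring genes. Members were richer in G and C than all tested peaks (a median of 55.3%, against 49.2%), and after GC correction their median was -0.03.

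Libraries of the same guide differed at these loci. The median log2 ratio of sgFLT3-DE-1 replicate 1 to sgFLT3-DE-1 replicate 2 was -0.29 over the tested members, against -0.02 over all tested peaks, and it reached -0.80 at PER1, -0.79 at FKBP5 and -0.50 at DDIT4. The same ratio was 0.23 at KLF9 and -0.02 at TSC22D3. For sgNT replicate 1 over sgNT replicate 2 the median was -0.08 over the members. The loci with the most negative ratios between the sgFLT3-DE-1 libraries, PER1, FKBP5 and DDIT4, also had the most negative sums below, and the part of that spread in them was not tested.

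Counts were also summed over all peaks of each locus, for every protein-coding gene, which gives more counts per value. Their CPM are relative to the total of all gene sums, not of all peaks, so they are on another scale than the CPM of single peaks. In edgeR 0 of the 7 loci were called at FDR 0.05, where 0.0% of 17251 genes were, each adjusted p was 1.0, and 0 had an unadjusted p under 0.05. DESeq2 and limma-voom also called 0 of them, with 0 at an unadjusted p under 0.05. The sums at NR3C1 were 106 and 92.7 CPM with sgFLT3-DE-1, against 114 and 91.3 with sgNT, a log2 fold change of -0.05 ± 0.22 (95% interval -0.54 to 0.44). As a ratio this interval ran from 0.689 to 1.36 times the sgNT level. For TSC22D3 they were 118 and 100.3, against 114.5 and 96.6, and the interval of the ratio was 0.735 to 1.45. ZBTB16 had 119 and 125, against 117 and 114, without overlap, with an interval of 0.76 to 1.46.

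The other sums were further from 0, but their intervals covered it. PER1 had 65.6 and 86.2 CPM with sgFLT3-DE-1, against 90.7 and 101 with sgNT, without overlap, a log2 fold change of -0.33 ± 0.22 (95% interval -0.82 to 0.15). Without sgFLT3-DE-1 replicate 1 it was -0.16, and without sgFLT3-DE-1 replicate 2 it was -0.55. FKBP5 had 65.1 and 97.3, against 87.4 and 100.5 with sgNT, a log2 fold change of -0.21 ± 0.24. DDIT4 had 55.9 and 72.7, against 64.5 and 80.8, a log2 fold change of -0.17 ± 0.22, which was -0.002 without sgFLT3-DE-1 replicate 1 and -0.38 without sgFLT3-DE-1 replicate 2. KLF9 had 274 and 201, against 237 and 192, a log2 fold change of 0.14 ± 0.27, with the interval of the ratio reaching 1.68. At every one of the 7 loci except ZBTB16, the 2 sgFLT3-DE-1 libraries differed by more than the means of the guides did.

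**Figure D3:**
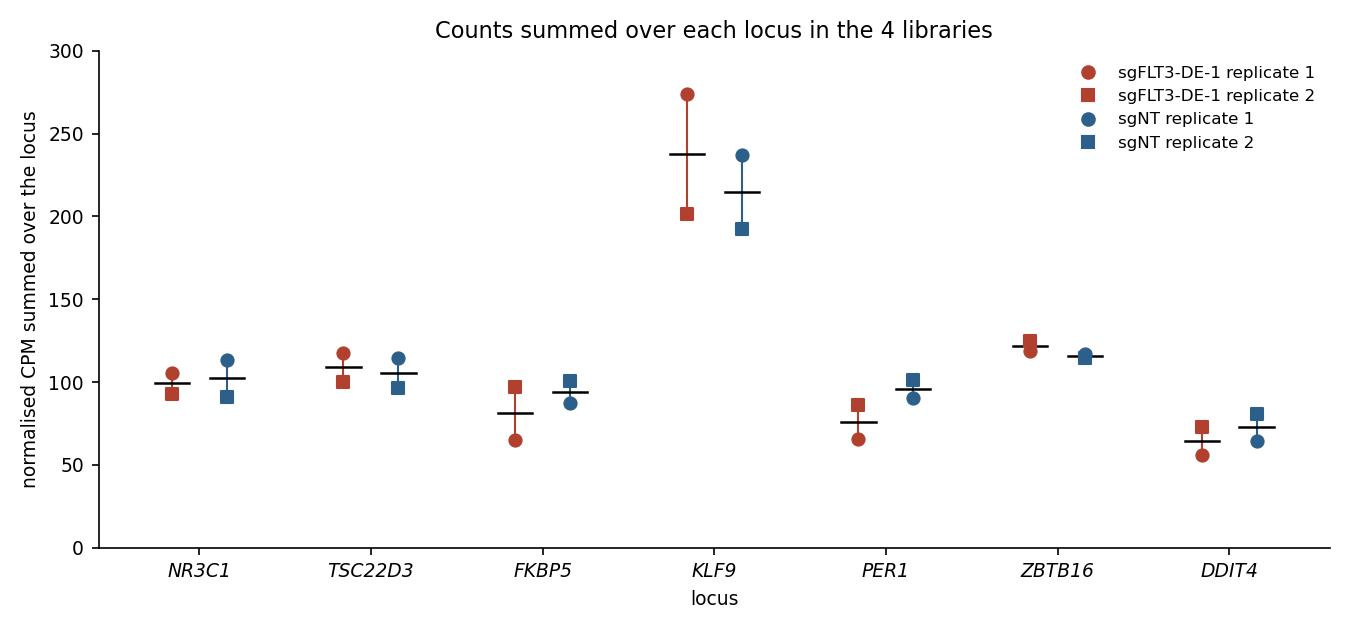
Normalised CPM summed over all peaks of each locus (y axis, from 0) for the 7 loci (x axis), sgFLT3-DE-1 at the left and sgNT at the right of each pair, with circles for replicate 1, squares for replicate 2 and a bar at the mean. At PER1 both sgFLT3-DE-1 libraries (65.6 and 86.2) lie below the sgNT libraries (90.7 and 101), and at FKBP5, KLF9 and DDIT4 the sgFLT3-DE-1 libraries lie further apart than the bars of the 2 guides.

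**Figure D4:**
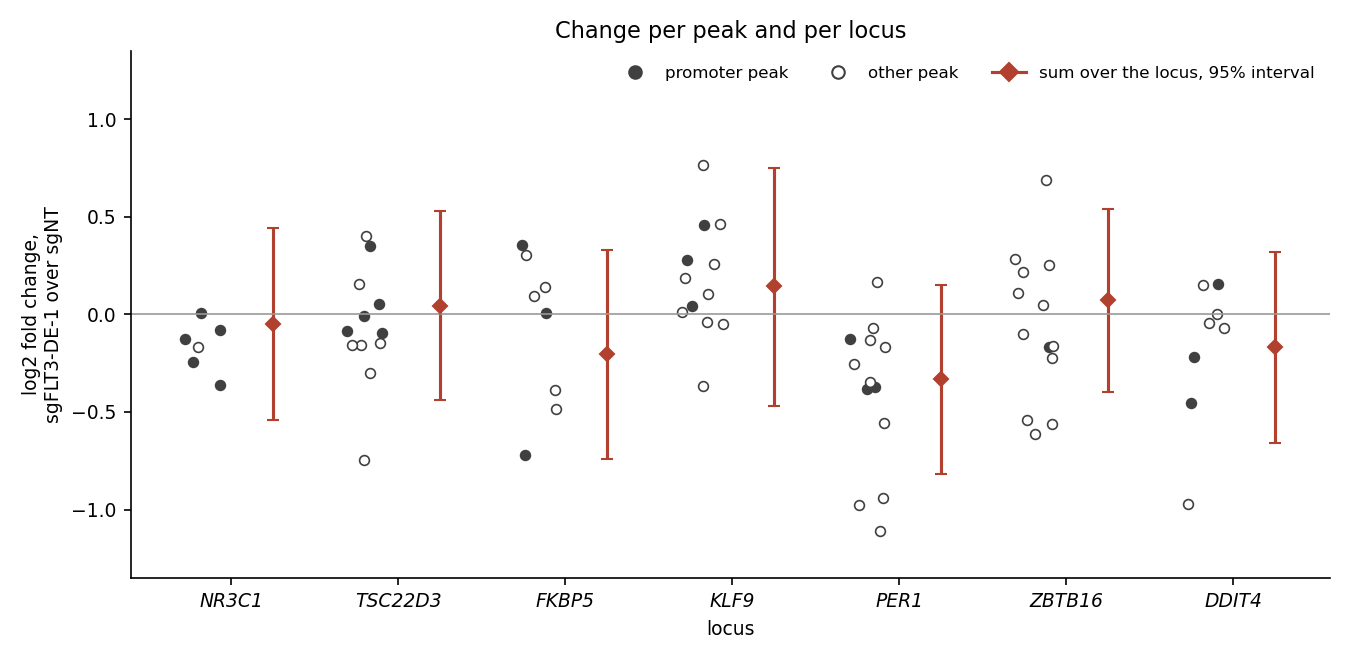
Log2 fold change of sgFLT3-DE-1 over sgNT (y axis) for the 72 tested peaks by locus (x axis; filled circles promoter peaks, open circles other peaks, spread sideways only for visibility), with the sum over the locus as a diamond and its 95% interval. Each interval covers 0, and 12 of the 13 PER1 points lie below 0.

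The rest of the pathway was read at promoter peaks of 3 further gene lists. Values of a named gene are those of its promoter peak with the smallest p. Other promoter peaks of the same genes, where there were any, had log2 fold changes nearer to 0, and some had the opposite sign. Of 19 genes for the receptor complex and its coregulators 17 had a promoter peak, and of their 41 tested peaks 0 were called, with 27 negative and 14 positive log2 fold changes and a median of -0.11. At an unadjusted p under 0.05 there were 3 of the 41 in edgeR, against 1.9% of all tested peaks. DESeq2 and limma-voom called 0 (1 and 3 at an unadjusted p under 0.05). The 4 with the smallest p were HSP90AB1 and HSP90AA1, the cytoplasmic HSP90 proteins, EP300, a histone acetyltransferase, and SMARCA4, a remodeler ATPase. HSP90AB1 had 5 and 9 counts with sgFLT3-DE-1, against 14 and 15 with sgNT (log2 fold change -1.54 ± 0.56, SE), whereas its other 2 promoter peaks were at 0.11 and 0.02. HSP90AA1, whose peak is shared with WDR20, had 45 and 55, against 64 and 48 (-0.65 ± 0.29). EP300 had 24 and 33, against 38 and 30 (-0.75 ± 0.34), and SMARCA4 38 and 53, against 57 and 37 (-0.54 ± 0.30), with its other 2 peaks at 0.35 and -0.34. These counts are unscaled, and the sgFLT3-DE-1 libraries were the deeper ones.

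Of 28 other glucocorticoid response genes 26 had a promoter peak, and of their 60 tested peaks 0 were called, with 41 negative and 19 positive values and a median of -0.10. At an unadjusted p under 0.05 there were 2 of the 60 in edgeR, against 1.9% of all tested peaks. DESeq2 and limma-voom called 0 (0 and 2 at an unadjusted p under 0.05). DUSP1, a MAP kinase phosphatase, had 39 and 64 counts with sgFLT3-DE-1, against 64 and 55 with sgNT (log2 fold change -0.72 ± 0.28). PFKFB2, which makes the activator of phosphofructokinase, had a positive value, with 27 and 37 counts, against 14 and 8 (1.04 ± 0.42). IRS2, an adaptor of the insulin receptor, had 9 and 10, against 13 and 15 (-1.05 ± 0.52), with its other 2 peaks at 0.35 and -0.14. SGK1, a kinase that raises sodium transport, had 84 and 154, against 120 and 105 (-0.44 ± 0.26), with its other 3 peaks at -0.27, 0.37 and 0.06.

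The 10 binding partners at response elements all had a promoter peak, and of their 17 tested peaks 0 were called, with 13 negative and 4 positive values and a median of -0.20. At an unadjusted p under 0.05 there were 3 of the 17 in edgeR, against 1.9% of all tested peaks. No list was tested as a whole. DESeq2 and limma-voom called 0 (1 and 2 at an unadjusted p under 0.05). JUND, an AP-1 subunit, had 95 and 128 counts with sgFLT3-DE-1, against 139 and 119 with sgNT (log2 fold change -0.71 ± 0.25). The NF-kB subunits RELA and NFKB1 had 20 and 47 counts, against 37 and 41 (-0.76 ± 0.34), and 5 and 13 counts, against 17 and 11 (-1.14 ± 0.54). CREB1, which binds the cyclic AMP element, had 28 and 49, against 23 and 14 (0.55 ± 0.37), while its larger promoter peak, with 343 and 403 counts, against 351 and 241, was at -0.14. Each adjusted p in these 3 lists was 1.0 in edgeR, and over all tested promoter peaks 61.4% had a negative value. At HOXA9-bound regions of the study, which overlapped 230 of all peaks, there were 0 of the 103 members.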

How the data were processed

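ATAC-seq libraries of SEM cells with dCas9-KRAB, 2 each for sgFLT3-DE-1 and sgNT, were grouped by their labels. The authors deposited raw counts for 139872 consensus peaks (hg19), along with the peak positions. How the counts were made is not settled by the sources. The extract protocol names cutadapt 1.18 and Bowtie2 2.2.9, whereas MACS2 2.1.1.20160309, BWA, Trim Galore 0.4.4, cutadapt, bedtools 2.24.0 and SAMtools 1.2 are listed in the submitters' processing notes. The kind of fragment counted and any shift for the transposase offset are not given in the sources used here. Peaks were called in the libraries compared, so a site open with either guide could enter the list.

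The test was edgeR's quasi-likelihood test (edgeR 4.0.16, R 4.3.3) with the group as its only term, after TMM scaling and filterByExpr at a minimum count of 10 and a minimum total of 15, which left 82558 peaks. P-values were adjusted by Benjamini-Hochberg over all of these (FDR 0.05). Each SE is the log2 fold change, without its sign, divided by the root of the F statistic. The procedure was tested on simulated data with changes larger than those of the members, the same spread for all features and independent libraries. That run does not cover changes as small as those of the members or libraries that vary together by replicate number. Levels are normalised CPM, per kb of peak where peaks are compared. Gene sums add all peaks in the gene body and 20 kb of flank, so neighbouring genes share peaks. Libraries of a guide differed by more than counting error (chi-square per degree of freedom 2.32 for sgFLT3-DE-1 and 1.51 for sgNT), and none was treated as a copy of another.

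Named peaks were every promoter peak, the 2 other peaks of highest mean CPM per kb over the 4 libraries and the 1 of smallest p per locus, and any that held the full response element, were called, or overlapped a HOXA9-bound region (positions from the study's list), and from other lists up to 4 genes of smallest p. No genes of like pattern were ranked, because 4 libraries in 2 groups cannot order them. The log2 fold changes of 16 member peaks, and the other results, were recomputed. PER1-p11 and KLF9-p3, the lowest and highest of the members, were not among these 16. The runs used DESeq2 1.42.0, limma-voom (limma 3.58.1), relative log expression factors, unscaled totals, loess offsets and GC correction (span 0.3). Further runs used no filter or one at a mean count of 50, thinned libraries, the replicate number as a term, other windows, and each library left out. For the listed promoters these runs were added after the data were seen. The members and lists were chosen with earlier results of these data known.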

Additional observations from a re-analysis of the deposited data

How the results depend on the processing

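No member peak and no member locus was called under any alternative run. The count of all peaks called (2) was 1 with total counts only, 5 without a filter, 1 with DESeq2, 6 with loess offsets, 1 with GC correction, 0 at a mean count of at least 50 and 0 to 9 on leaving out a library, highest without sgFLT3-DE-1 replicate 2. All gene sums called (0) became 2 with DESeq2 and 0 to 3 on leaving out a library. The members' median ranged from -0.33 to -0.005 on leaving out a library.

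With the replicate number as a block 74 peaks (17 higher, 57 lower) and 164 gene sums were called, and with GC correction and the block 23 peaks. Of the members 0 were called with the block, with a smallest adjusted p of 0.0919 at FKBP5-p7. At an unadjusted p under 0.05 in edgeR there were 9 of the 72 tested members with the block, against 2 without it. Of the 7 locus sums there were 2, against 0. The shares of all peaks and all sums at that p with the block were not computed, so these counts have no baseline. Among the listed promoters JUND had an adjusted p of 0.0185, which was 0.286 with GC correction and the block. Deviations of same-numbered libraries correlated at 0.397, but with 2 pairs and no label for the number, the numbers were not taken to pair the libraries.

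For the 16 member peaks that were recomputed, of 232 values under the alternatives 209 kept their sign and 23 did not. FKBP5-p11 (0.009) was -0.052 without a filter, -0.01 with DESeq2, -0.014 with limma-voom, -0.025 with the block, -0.018 after thinning and -0.463 to 0.32 on leaving out a library. FKBP5-p4 (0.092) was -0.002 with limma-voom, -0.013 with GC correction and the block, and -0.87 to 0.593 on leaving out a library. TSC22D3-p5 (-0.01) was 0.007 with the block, 0.03 with loess offsets, 0.027 and, with the block, 0.053 with GC correction, 0.02 at a mean count of at least 50 and -0.255 to 0.235 on leaving out a library. NR3C1-p9 was 0.102 with GC correction, with and without the block. On leaving out a library NR3C1-p7 ranged from -0.46 to 0.195 and DDIT4-p6 from -0.512 to 0.086. Without a change of sign, FKBP5-p7 ranged from -0.996 to -0.53, KLF9-p9 from 0.039 to 0.545, KLF9-p13 from -0.531 to -0.206, ZBTB16-p13 from -0.348 to -0.035 and ZBTB16-p8 from -0.936 to -0.28. Gene sums reversed in 7 of 77 values, each on leaving out a library, where NR3C1 ranged from -0.199 to 0.135, TSC22D3 from -0.079 to 0.188, FKBP5 from -0.53 to 0.045, and KLF9 from -0.099 to 0.349. The cause of these reversals was not tested, and each log2 fold change that reversed had an interval that covered 0. A lone library was assumed to vary like the other group. Of the 103 members 31 had too few counts to be tested.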
